A study of Mus musculus with 3 samples.

Results

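The peaks of PHF10 were examined at 5 genes of axon growth and microtubules: Gap43, Nrep, Tuba4a, Camsap2 and Map2. Of these 5 genes, 4 had a PHF10 peak within 500 bp of an annotated transcription start site (TSS), and Map2 had none. Only Nrep had a peak in both replicates, while Gap43, Tuba4a and Camsap2 had a peak in replicate 1 and none in replicate 2. The genes were chosen by their PHF10 peaks in these same lists, apart from Map2, which was added because the study names it. Nrep is named by the study too. The peaks are therefore given as a description without a test. Together the genes held 5 of the 392 peaks deposited for both replicates. Among all 21951 protein-coding genes, 298 had such a peak in either replicate, which is 1.36%, and 83 had one in both, which is 0.378%. Since the genes were picked for having a peak, their count cannot be read against these shares.

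The chromatin came from brains of mice at postnatal day 120, with one whole brain per preparation according to the protocol. The strain is C57BL/6 in the labels and C57BL/6J, males, in the methods of the study, and no treatment is named. There were 2 immunoprecipitations with antibodies to PHF10, described by the study as biological replicates, and 1 control with rabbit IgG, for which the labels say preimmune. The design text of the series instead names cerebellum and a younger age, and the peak names in the lists point to cerebellum too, so the exact tissue is uncertain. In either case neurons and glia were mixed, and which cells carried a peak cannot be told apart from the lists. The study reports, from a published expression database, high PHF10 transcription in neurons and none detectable in other brain cells. The lists give positions and peak statistics only, so the labelled tissue could not be checked against marker genes.

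PHF10 is a subunit that marks PBAF, a member of the SWI/SNF family of complexes, which use ATP to move nucleosomes at promoters and enhancers. Axons grow by adding membrane at the growth cone and by extending microtubules, which are polymers of alpha and beta tubulin. Gap43 encodes a protein of the growth cone membrane. Nrep encodes a small protein linked to nerve regeneration, also known as P311. Tuba4a encodes an alpha tubulin, Camsap2 a protein that holds the minus ends of microtubules, and Map2 a protein that lies along microtubules, mainly in dendrites.

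The promoter sequences of 4 of the genes are shown to compare their base composition, and that of Nrep is not shown here. They are from the mouse genome build mm10 (RefSeq sequence of GRCm38) and run 5′ to 3′ on the strand of the gene, which is the minus strand for Gap43, Tuba4a and Camsap2 and the plus strand for Map2. Each run ends 30 bases into the transcript, and capitals mark the bases inside the PHF10 peak of replicate 1. The Gap43 run covers chr16:42340622-42340901, with the TSS of transcript Gap43-201 at 42340651. The Tuba4a run covers chr1:75219265-75219425 and starts after an exon of a longer transcript, with the TSS of Tuba4a-202 at 75219294. The Camsap2 run covers chr1:136346075-136346354, with the TSS of Camsap2-201 at 136346104. The Map2 run covers chr1:66175023-66175302 around the most upstream TSS of the gene, that of Map2-218 at 66175273, and has no capitals because no peak was listed there.
Gap43: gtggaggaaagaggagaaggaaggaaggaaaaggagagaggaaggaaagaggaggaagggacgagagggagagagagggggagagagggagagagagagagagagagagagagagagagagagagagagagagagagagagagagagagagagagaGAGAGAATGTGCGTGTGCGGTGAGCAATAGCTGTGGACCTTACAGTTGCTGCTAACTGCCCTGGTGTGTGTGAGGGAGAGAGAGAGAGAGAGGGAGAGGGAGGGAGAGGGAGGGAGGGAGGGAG
Tuba4a: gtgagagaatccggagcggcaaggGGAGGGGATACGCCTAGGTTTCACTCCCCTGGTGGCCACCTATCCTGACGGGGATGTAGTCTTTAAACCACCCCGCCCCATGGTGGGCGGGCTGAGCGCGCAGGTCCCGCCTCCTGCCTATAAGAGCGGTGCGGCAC
Camsap2: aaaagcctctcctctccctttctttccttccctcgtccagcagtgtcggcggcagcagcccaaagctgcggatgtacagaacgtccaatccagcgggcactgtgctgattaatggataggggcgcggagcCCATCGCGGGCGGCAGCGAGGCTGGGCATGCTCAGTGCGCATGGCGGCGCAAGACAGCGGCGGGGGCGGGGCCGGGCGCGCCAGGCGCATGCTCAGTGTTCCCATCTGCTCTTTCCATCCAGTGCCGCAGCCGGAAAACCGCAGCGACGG
Map2: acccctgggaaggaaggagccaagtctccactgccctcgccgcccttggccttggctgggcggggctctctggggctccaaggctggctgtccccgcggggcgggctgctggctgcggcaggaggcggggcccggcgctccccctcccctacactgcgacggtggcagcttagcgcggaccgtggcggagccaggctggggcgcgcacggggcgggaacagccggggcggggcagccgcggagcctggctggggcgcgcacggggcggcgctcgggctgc

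The Gap43 promoter is dominated by G and A. In the 300 bases from 250 before to 50 after its TSS, purines made up 86.3%, and the longest stretch of purines alone or pyrimidines alone was 101 bases. Of the 93526 TSSs of protein-coding genes, 99.8% had a shorter longest stretch in the same window. The peak began near the end of this stretch, most of which lay outside it, and continued over the TSS. A second stretch rich in G and A lay inside the peak, across the TSS. Nrep and Camsap2 also had long stretches, of 30 and 29 bases, with shorter ones at 97.2% and 96.9% of these TSSs. The stretch was 12 bases in Tuba4a and 13 in Map2, where the shares were 56.1% and 66.1%. This measure was chosen after the sequence had been seen.

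Short promoter motifs were searched for on both strands in the same 300 bases. The letters were TATAAA for the TATA box, CCAAT for the CCAAT box, GGGCGG for the GC box, TGACGTCA for the cAMP response element and CGCATGCG for the NRF1 core. Over the same window at all 93526 TSSs of protein-coding genes these were present in 11.5%, 34.8%, 38.5%, 1.94% and 2.08%, in that order. Those TSSs include many alternative TSSs of the same gene, whereas each described gene was searched at a chosen TSS. The shares are therefore only a rough reference. Gap43 and Nrep held none of the 5. Tuba4a held 2 GC boxes, starting at -35 and -23 relative to the TSS. Camsap2 held 2 GC boxes, starting at -113 and -57, both inside its peak, and 1 CCAAT box at -166, outside it. Map2, with no peak, held the most GC boxes, 6, between -211 and 13. A match is only a run of letters, and binding of the corresponding factors was not measured.

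The lists themselves were small. They held 251 peaks in replicate 1 and 141 in replicate 2, of which 249 and 139 lay on nuclear chromosomes. Merging peaks that shared at least 1 bp gave 303 sites, and 89 of them (29.4%) had a peak in both replicates. The deposited fold enrichment first scales the fragments at a summit to the depth of the IgG library, then adds 1 to this value and to the IgG background, and takes their ratio. From the fold and the p-value of each peak the number of fragments under the summit could be solved, with 22 as the median in replicate 1 and 20 in replicate 2. The folds of the described genes rest on 20 to 31 fragments each, and the 95% Poisson intervals given with them cover counting error only. The depth of each library relative to IgG came out at 1.38 for replicate 1 and 1.14 for replicate 2.

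Nrep (ENSMUSG00000042834.15, minus strand of chromosome 18, 33437019 to 33464029) was the gene with a peak in both lists. In replicate 1 the peak had a fold enrichment of 5.86, a −log10 p of 12.7 and a −log10 q of 7.12. In replicate 2 the fold was 3.87, the −log10 p 7.29 and the −log10 q 2.36. The mean fold was 4.86 ± 1.40 (SD, n = 2). Thus replicate 1 was higher, with 31 fragments at the summit (interval 21.1 to 44.0) against 21 (13.0 to 32.1) in the shallower replicate 2. The folds that match these intervals, 4.06 to 8.21 and 2.47 to 5.81, overlap. The IgG background used for the peak was 3 fragments in replicate 1 and 4 in replicate 2, above the genome-wide 1.85. Among the nuclear peaks the Nrep peak stood at rank 126 of 249 by fold in replicate 1 and at 138 of 139 in replicate 2, so that in the second list it was among the weakest by fold.

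The Nrep peaks ran from 33463490 to 33463743 (254 bp) and from 33463569 to 33463768 (200 bp), sharing 175 bp, with summits 32 bp apart. Nrep has 4 annotated TSSs within 594 bp, and all 4 lay within 500 bp of both peaks. The TSS of Nrep-201 at 33463739 was the only TSS inside either peak, and the summits lay 83 bp and 51 bp downstream of it. There the annotation places the 5′ UTR of Nrep-201 and Nrep-204 and an intron of Nrep-202, while Nrep-203 starts further downstream. A long intergenic RNA gene on the opposite strand, AC115117.2, starts 420 bp from the peak of replicate 1 and 395 bp from that of replicate 2.

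**Figure D1:**
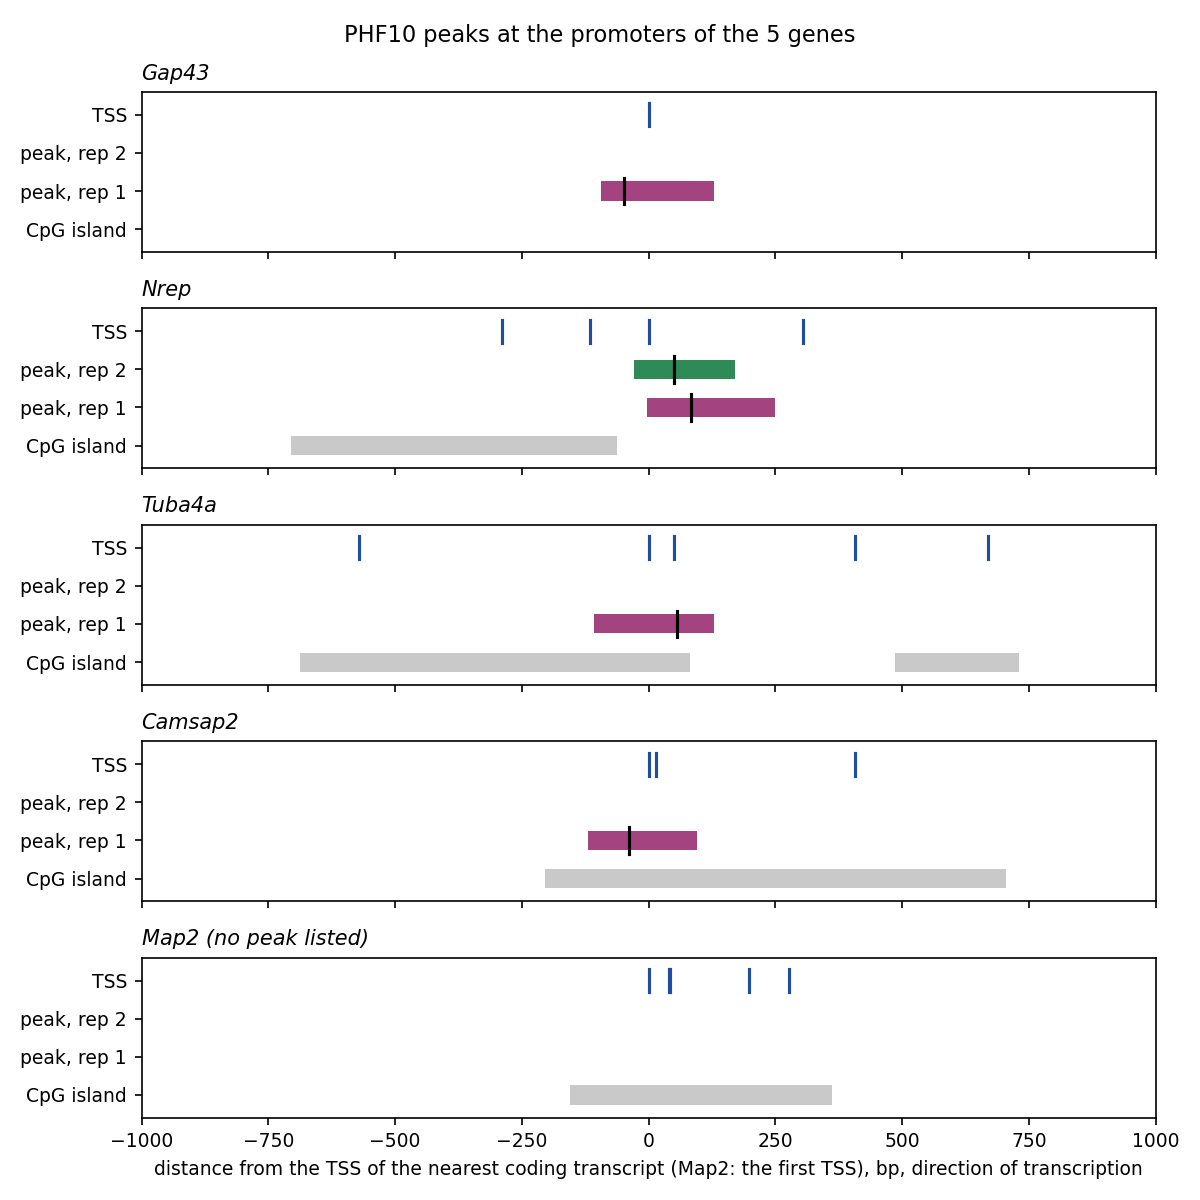
PHF10 peaks, annotated TSSs (blue) and CpG islands (grey) around the promoters of the 5 genes; the horizontal axis is the distance in bp from the TSS of the nearest coding transcript in the direction of transcription, and black lines are summits. Nrep carries peaks of both replicates just downstream of its island, Tuba4a and Camsap2 carry a replicate 1 peak overlapping an island, Gap43 carries a replicate 1 peak with no island, and Map2 has an island and no peak.

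Gap43 (ENSMUSG00000047261.9, minus strand of chromosome 16, 42248442 to 42340651) had a peak of 224 bp in replicate 1, from 42340522 to 42340745. Its fold was 5.43, its −log10 p 8.86 and its −log10 q 3.70, from 20 fragments (interval 12.2 to 30.9) over the genome-wide IgG background of 1.85. Replicate 2 listed no peak. Of the 2 TSSs of Gap43 the peak covered that of Gap43-201, the coding transcript, and the summit lay 49 bp upstream of it, outside the gene. The other TSS, of the processed transcript Gap43-202, lies 64579 bp downstream, and the Gap43 peak was 64450 bp away from it.

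Tuba4a (ENSMUSG00000026202.13, minus strand of chromosome 1, 75214228 to 75219865) had a peak of 236 bp in replicate 1, from 75219166 to 75219401. The fold, −log10 p and −log10 q were the same as at Gap43 (5.43, 8.86 and 3.70), since both summits had 20 fragments over the same background. Replicate 2 listed no peak here either. Tuba4a has 7 TSSs spread over 2451 bp, of which 4 lay within 500 bp of the peak and 2 inside it. The summit was 4 bp downstream of the TSS of Tuba4a-205, a retained intron transcript, and 55 bp downstream of that of the coding Tuba4a-202, in its UTR. The most upstream TSS, that of Tuba4a-203, was just inside the 500 bp limit at 464 bp, and that of Tuba4a-201 just outside at 542 bp. The 2 TSSs inside the peak, those of Tuba4a-202 and Tuba4a-205, follow that of Tuba4a-203 in the direction of transcription.

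Camsap2 (ENSMUSG00000041570.14, minus strand of chromosome 1, 136268123 to 136346104) had a peak of 216 bp in replicate 1, from 136346009 to 136346224. Its fold was 5.54, its −log10 p 9.57 and its −log10 q 4.36, from 21 fragments (interval 13.0 to 32.1) over an IgG background of 1.92. No peak was listed in replicate 2. The 5 TSSs of Camsap2 span 64354 bp. The peak covered 2 of them, those of the coding Camsap2-201 and of the processed transcript Camsap2-205, 14 bp apart, and its summit lay 38 bp upstream of the former. Another TSS, shared by Camsap2-202 and Camsap2-203, was 311 bp from the peak. The internal promoters, of Camsap2-204 and Camsap2-206, were 48660 and 64259 bp away from it.

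**Figure D2:**
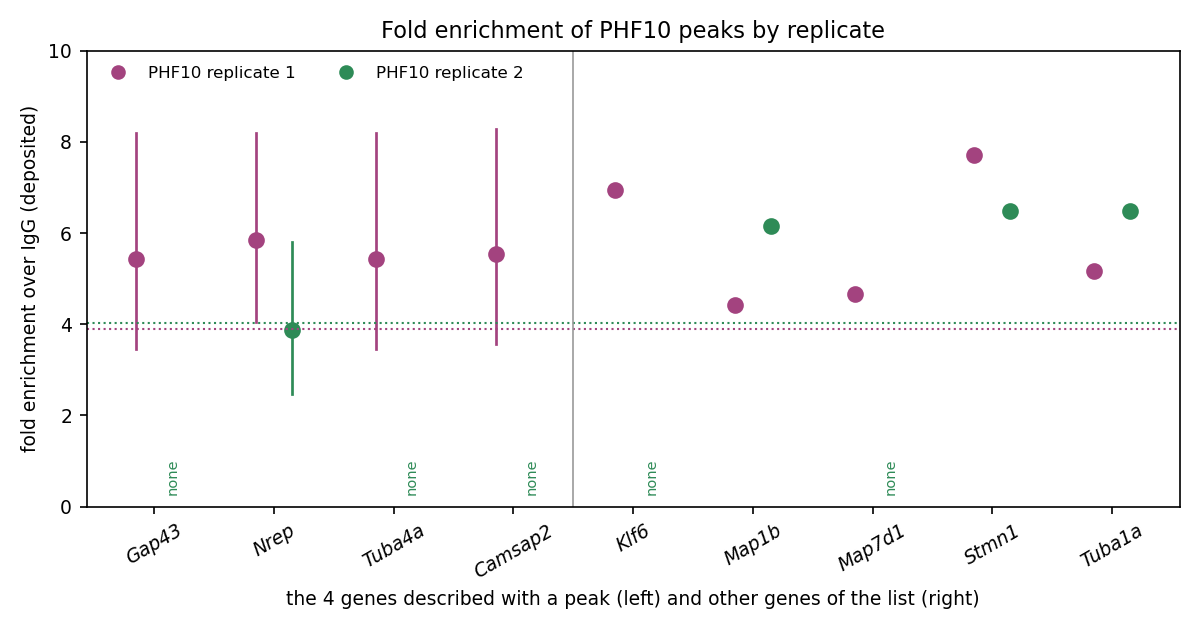
Deposited fold enrichment over IgG (vertical axis) in PHF10 replicate 1 (purple) and replicate 2 (green) for the 4 genes with a peak and for the other genes of the list with one; vertical lines are 95% Poisson intervals of the fragments at the summit, drawn for the 4 genes only, and dotted lines are the fold needed at genome-wide background, 3.90 in replicate 1 and 4.03 in replicate 2. "None" means that no peak was listed in that replicate; Nrep had both values, 5.86 and 3.87.

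The missing replicate 2 peaks were set against the depth of the lists. At the relative depth of replicate 2, the 20 fragments at Gap43 and Tuba4a would correspond to 16.6 and the 21 at Camsap2 to 17.4. These scaled values carry the counting error of replicate 1. Over the genome-wide background, 12 summit fragments would pass the p threshold in replicate 2. The smallest count at any listed replicate 2 peak was 13. The count actually present in replicate 2 is unknown, because only called peaks are listed. Of the 48 replicate 1 peaks with 20 or 21 fragments, 8 (16.7%, exact 95% interval 7.48% to 30.2%) had a peak in replicate 2. Of the 136 with more fragments, 73 (53.7%, 44.9% to 62.3%) did. The 3 genes therefore belong to a height class in which most peaks were listed once. This class was set by their own counts and includes their peaks. The intervals treat peaks of the same libraries as independent. Whether the peaks of the 3 genes differ between the brains or were missed in replicate 2 was not tested.

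**Figure D3:**
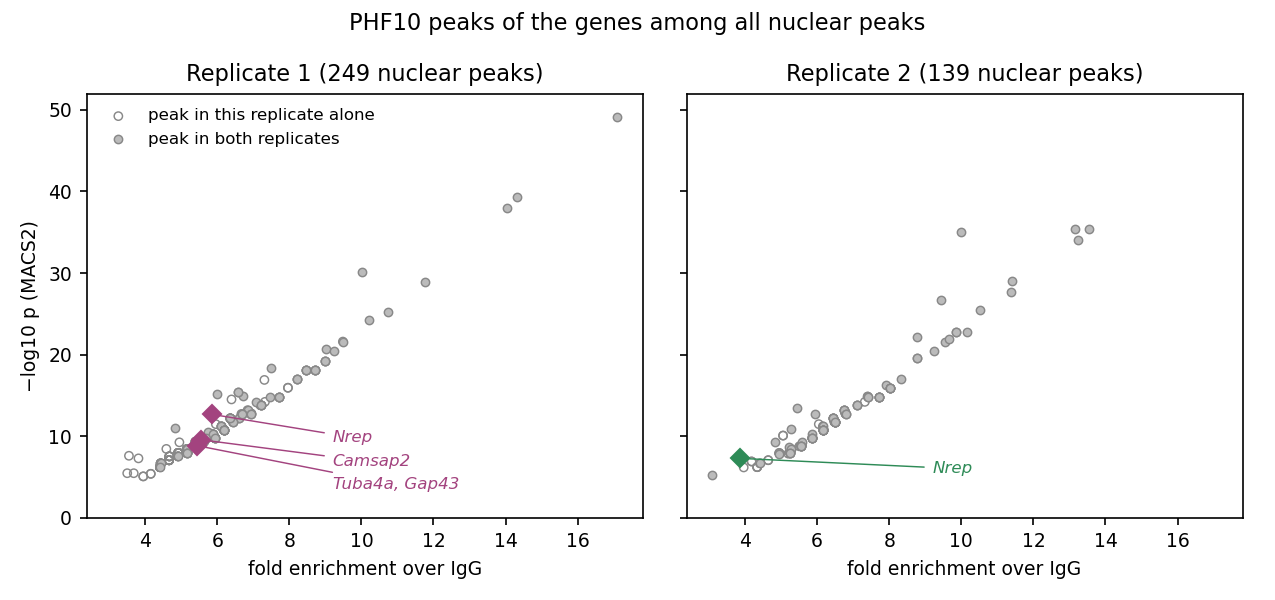
Fold enrichment over IgG (horizontal axis) against −log10 p (vertical axis) of every nuclear peak in each replicate; filled circles are peaks found in both replicates, open circles peaks of one replicate, and diamonds the described genes. In replicate 1 the 4 genes lie at folds of 5.43 to 5.86, near or below the median of 5.85, and in replicate 2 Nrep lies at the low end.

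Map2 (ENSMUSG00000015222.17, plus strand of chromosome 1, 66175273 to 66442583) had no peak in either list, and the nearest peak to any of its TSSs was 6938056 bp away. The other 4 genes had a peak over a TSS, at a gap of 0 bp, so no member lay near the 500 bp limit. Map2 has 24 annotated transcripts from 23 TSSs spread over 258302 bp, of which 5 had a CpG island within 100 bp and 18 did not. Over the 5 island TSSs the GC content of the 300 bases was 65.7% to 79%, within and above the range of the promoters with a peak. Below the calling threshold of −log10 p of 5 the lists hold nothing, so a weaker enrichment at Map2 was not detectable in these files. The study, in contrast, counts Map2 among the genes with the PHF10D isoform at the promoter in its mouse ChIP-seq. Its final set merged the peaks of each replicate at the same threshold and held 301 peaks. The merged nuclear sites here were also 301, with none at Map2. In differentiated human SH-SY5Y cells the study also reports tagged PHF10D at the MAP2 promoter. Knockdown of PHF10D lowered MAP2 transcription there. For Nrep the study likewise reports PHF10D at the mouse promoter, tagged PHF10D at the human NREP promoter and lower NREP transcription after the knockdown.

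The genes differed in their CpG islands. Islands were stretches of at least 200 bp with a GC content of at least 50% and an observed to expected CpG ratio of at least 0.6. Of the 4 sites, those of Tuba4a and Camsap2 touched an island, of 770 bp and 910 bp, and both summits lay inside it. The Nrep site ended 34 bp short of an island of 644 bp that covers the upstream TSSs, with its summits 146 bp and 114 bp outside it. The nearest island to the Gap43 site was 150075 bp away. Among all 301 nuclear sites, 259 (86.0%) touched an island and 42 did not, 18 of the latter with a peak in both replicates.

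In the 201 bp around the summit the GC content was 73.6% in Camsap2, 62.2% in Tuba4a, 57.7% in Gap43 and, in Nrep, 55.2% in replicate 1 and 51.7% in replicate 2, against a median of 66.2% over all nuclear summits. The CpG ratio was 1.02 in Camsap2, 0.847 in Tuba4a, 0.763 in Gap43 and 0.423 and 0.419 in Nrep, against a median of 0.905. Only Camsap2 was above both medians.

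**Figure D4:**
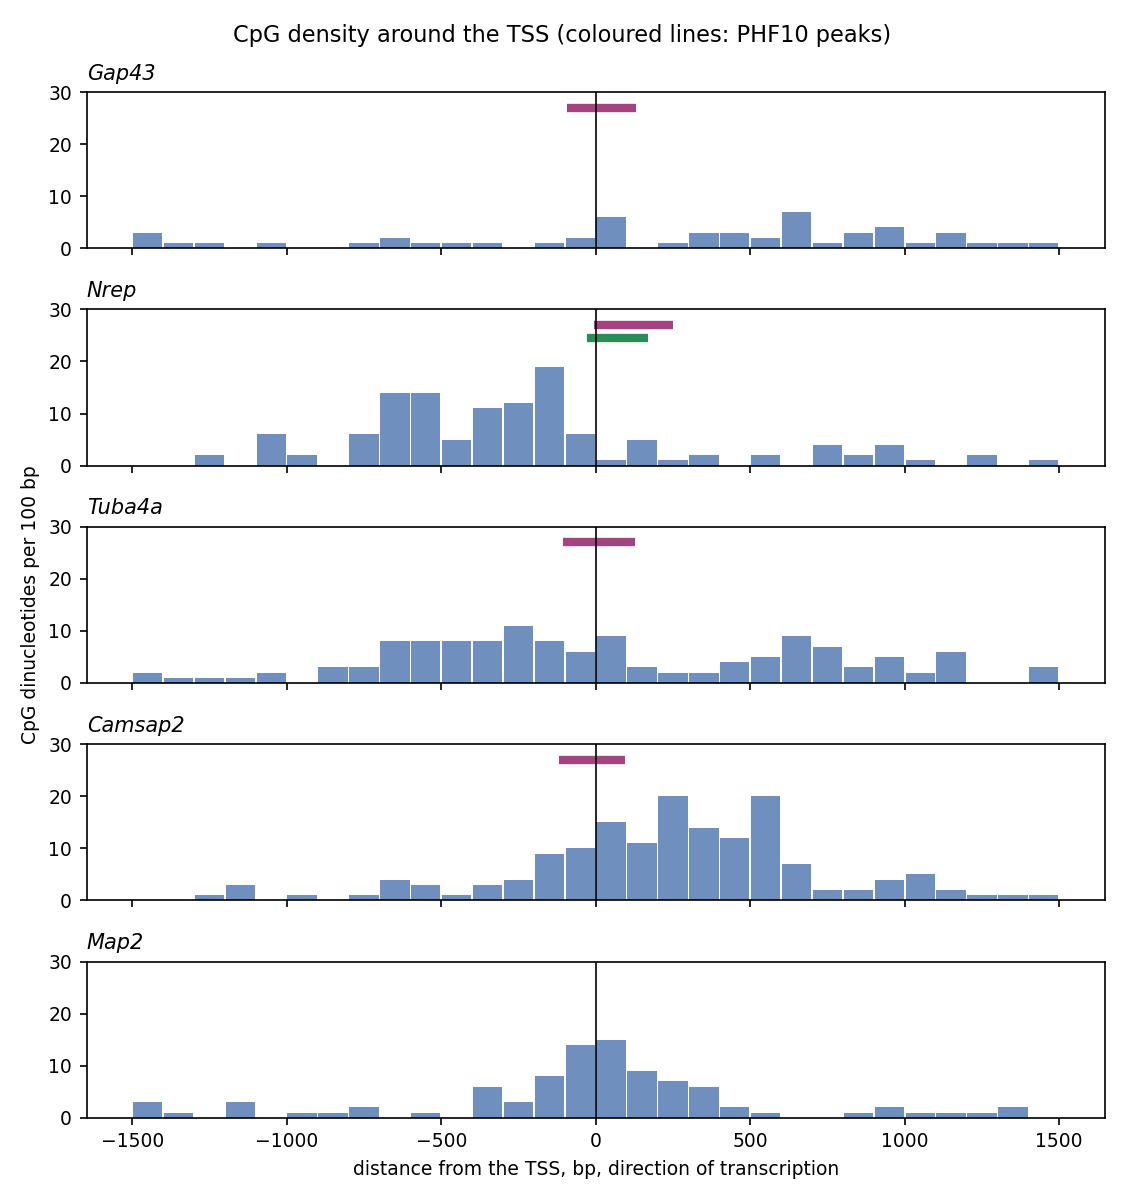
CpG dinucleotides per 100 bp (vertical axis) in bins around the TSS of the 5 genes, with distance in bp in the direction of transcription on the horizontal axis; purple and green lines are the peaks of replicates 1 and 2. The Camsap2 peak lies over rising CpG density, the Nrep peaks lie at the downstream edge of a CpG-dense block, and Gap43 has few CpGs on either side.

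Repeats were also unevenly shared. Of the bases of the site, 67.0% were masked as repeats in Nrep and 55.4% in Gap43, against 11.1% in Camsap2 and 0 in Tuba4a. The median over nuclear sites was 0, and 24 sites (7.97%) were masked over more than 50% of their bases. Thus both genes without an island at the site also had a mostly masked site. These traits are not independent, because the island search left out masked bases. With masked bases included, the sites touching an island were still the 2 of Tuba4a and Camsap2. Every stretch of 100 bp in the 4 sites occurred once in the genome. A role of the repeats in these peaks was not tested.

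The genes were then placed among a list of 84 genes of axon growth, tubulins, microtubule-associated proteins, severing proteins and neurofilaments, drawn up with earlier results of these data known. Of these, 9 (10.7%) had a PHF10 peak within 500 bp of a TSS and 4 (4.76%) had one in both replicates. The 5 genes of the list with a peak beyond the 4 already described were Klf6, Tuba1a, Map1b, Map7d1 and Stmn1. Leaving out the 5 described genes, these were 5 of 79 (6.33%), 3 of them in both replicates (3.8%), beside the 1.36% and 0.378% of all protein-coding genes. The list was not chosen independently of these data, so no test was made.

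By role, peaks were present at 3 of 18 genes of axon growth, 2 of 20 tubulins, 2 of 17 proteins that bind along microtubules, 1 of 13 that bind their ends and 1 of 4 stathmins. None was listed at 7 severing proteins or 5 neurofilament and other intermediate filament genes. The counts by role include genes picked for having a peak. These are Gap43 and Nrep in axon growth, Tuba4a among the tubulins and Camsap2, the only end-binding gene with a peak. The role counts can therefore not be read against the 1.36% of all protein-coding genes. Stmn1, a stathmin that binds free tubulin, had folds of 7.71 and 6.48, a mean of 7.10 ± 0.867 (SD, n = 2). Tuba1a, the alpha tubulin of growing neurons, had 5.17 and 6.48, a mean of 5.83 ± 0.927 (SD, n = 2). Map1b, a microtubule-associated protein of growing axons, had 4.43 and 6.16, a mean of 5.30 ± 1.22 (SD, n = 2). These 3 genes had peaks in both lists, whereas Klf6, a transcription factor that promotes axon growth, and Map7d1, a microtubule-binding protein, had a peak in replicate 1 only, with folds of 6.95 and 4.67.

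The alpha tubulins Tuba1a and Tuba4a differed in where their peaks lay. The Tuba1a peaks were 128 bp and 89 bp downstream of its single TSS and covered the TSS of Gm49450, a predicted coding gene on the same strand, whereas the Tuba4a peak covered its own TSSs. At Map1b a divergent long noncoding RNA gene, Gm26559, and at Stmn1 a miRNA gene, Gm23634, also had a TSS within 500 bp of the site, as AC115117.2 did at Nrep. At these sites the peaks cannot be assigned to one gene by distance to a TSS within 500 bp alone, although at Nrep, Map1b and Stmn1 they covered a TSS of the named gene. The 4 described genes with a peak had a median mean fold of 5.43, beside 5.68 over the 283 nuclear sites within 500 bp of a TSS. Of the 9 sites of list genes, 7 touched an island, and the other two were those of Nrep and Gap43.

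Finally, the promoter sites with peaks in both replicates and folds most like those of Nrep were sought by the distance of the log2 folds in the 2 replicates. Among 75 such sites the nearest was that of Tmem183a, with folds of 5.16 and 4.41 (distance 0.26), and then that of Eif4a2, which encodes a translation initiation factor, with 5.93 and 4.95 (distance 0.36).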

How the data were processed

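PHF10 was measured by ChIP-seq in 2 libraries, with 1 IgG control, from mouse brain at 120 days. Per the submitters' processing notes and the study's methods, cutadapt was used for trimming, Bowtie 1 for alignment to mm10, Picard for removing duplicates and MACS2 for calling peaks against IgG, separately in each replicate. The authors deposited for each peak a score (10 times −log10 p, cut to a whole number), a fold enrichment, and −log10 p and −log10 q. The IgG library has no list of its own here. Tool versions beyond these are not given in the sources used here.

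All deposited peaks were used. Fragments at each summit and the relative depth were solved from fold and p. This was tested on simulated data, recovering 251 of 251 and 141 of 141 planted peaks. The window search correctly placed 400 of 400 planted peaks inside or outside 500 bp of a TSS. The island search recovered 98 of 98 planted islands. TSSs were those of every transcript in GENCODE M21, and islands were searched in the repeat-masked mm10 sequence. Scripts ran in Python 3.11.15 (pandas 2.3.3 and numpy 2.4.6 for tables, scipy 1.17.1 for intervals, numba 0.67.0 for the island search, matplotlib 3.10.9 for plots).

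The replicates are a single condition, so no test between conditions was made. The genes and the list of 84 genes were chosen with earlier results of these data known. Genes are named by a rule: the 5 described genes, every list gene with a peak, other genes with a TSS within 500 bp of a peak of a described gene, and the 2 sites most like each described site called in both replicates. The predicted and RNA genes beside Tuba1a, Map1b and Stmn1 fall outside it and were named after their values were seen. Alternatives covered the window, the kind of TSS, the summit, stricter p and q, each replicate left out, the shared overlap, the ratio without the added 1 and the definition of an island.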

Additional observations from a re-analysis of the deposited data

How the results depend on the processing

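Of the alternatives tried, 4 moved a count by over 1.5 times. Counting only sites called in both replicates lowered the genes with a peak from 4 to 1 and those of the list of 84 from 9 to 4. Leaving out one PHF10 replicate gave 1 to 4 genes and 4 to 9 list genes, the lower values without replicate 1, when Gap43, Tuba4a and Camsap2 had no peak. Without that replicate, no fold could be given for these 3 genes. Leaving out replicate 2 could not change their folds or these counts, since every gene counted has a peak in replicate 1. For Nrep, leaving out a replicate gave folds of 3.87 to 5.86. The ratio without the added 1 was 6.03 for Nrep, against a mean deposited fold of 4.86. It was 7.82 for Gap43 and Tuba4a, against 5.43, and 7.91 for Camsap2, against 5.54. The number of genes with a peak stayed at 4 with windows of 200 and 1000 bp, with coding TSSs, with the summit alone and with the stricter p and q. The list count was 8 with a window of 200 bp, which lost Klf6. The count of 2 sites touching an island was the same under all 3 other definitions.

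No paired analysis was possible because there is a single PHF10 condition and the IgG control has no list of its own. With 20 to 31 fragments per summit, the counting intervals of all 5 peaks overlap, so their folds give no order among the genes.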
